A study of Mus musculus with 16 samples.

Results

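Minocycline given alone was compared with no drug in the mouse hypothalamus. The members of this comparison are the 8 libraries labelled MINO (mice 26, 31, 35 and 36) or CTRL (mice 3, 4, 5 and 11), out of 16 libraries in the series, and they were chosen by their labels. All mice were C57BL/6 females that ate a high fat diet (45 kcal% fat) from the age of 10 weeks and for 12 weeks, and each mouse gave 1 library. CTRL mice received this diet and no drug, so that both groups were on the high fat diet and neither is a lean control. In MINO, minocycline was added to the water they drank, at 0.6 mg/mL, and the diet was unchanged. In a further 4 mice olanzapine, an antipsychotic, was mixed into the diet at 54 mg per kg (OLZ), and 4 had both drugs (OLZ+MINO). The comparison asks what minocycline does to hypothalamic transcripts in the absence of the antipsychotic.

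Minocycline is a tetracycline antibiotic that enters the brain. Tetracyclines stop protein synthesis on bacterial ribosomes, and mitochondrial ribosomes, which descend from bacterial ones, are known to be sensitive to drugs of this class. The mitochondrial genome encodes subunits of the respiratory chain and the RNAs of its own ribosome, while the proteins of that ribosome and most respiratory chain subunits come from nuclear genes. Minocycline is also widely used in rodents to dampen the activation of microglia, the resident macrophages of the brain. The hypothalamus holds many small nuclei of different function, among them the arcuate nucleus with its NPY/AgRP and POMC neurons, which drive and restrain feeding, and the lateral area with its orexin and melanin-concentrating hormone (MCH) neurons.

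The authors counted reads per gene, scaled the counts by a factor per library and rounded them. These values are called scaled counts here. Their totals were 8783427 to 9020375 in CTRL and 8849189 to 9447616 in MINO over 16005 genes, and the steps between low values gave an estimated depth of 8.0 to 9.31 M reads per CTRL library and 9.15 to 9.74 M per MINO library. Some libraries stood apart before any test. The mean log2(scaled count + 1) of 20 measured tanycyte markers (of 21 listed, ependyma-like glia at the base of the third ventricle) was 6.92 in MINO mouse 31 and 7.18 in MINO mouse 35, beside 6.30 and 6.07 in the other MINO mice and 5.50 to 6.09 in CTRL. Their summed scaled counts were 2671 to 3316 in CTRL and 2868 to 5427 in MINO. CTRL mouse 11 had higher values of thalamic markers, with a mean of 9.33 over 14 of them beside 7.92 to 8.12 in the other 7 libraries. The first principal component took 26.2% of the variance and set CTRL mouse 11 (-30.6) against MINO mice 31 (20.8) and 35 (18.9). Many values moved when these 3 libraries were left out, and the lists and genes most affected are given below both ways. The lowest mean of any gene in the table was 9.5 scaled counts, so that a gene whose CTRL mean lay under this value was in the table only through its MINO libraries and had to be higher in their mean. In the same way, a gene whose MINO mean lay under this value had to be lower in that mean. Such genes are pointed out in the lists where they weigh most.

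No gene passed the test between MINO and CTRL. Each gene was tested on log2(scaled count + 1) with limma, which borrows the estimate of the spread across genes, with Benjamini-Hochberg adjustment over all 16005 genes. "Rose" and "fell" are kept for an adjusted p under 0.3. The study set its false discovery rate at the same number, but its local rate is another quantity than this adjusted p. By limma 0 genes (0%) passed it, and 0 passed 0.05. The smallest adjusted p was 0.768. At an unadjusted p under 0.05 there were 1026 genes (6.41%), 481 higher in MINO (3.01%) and 545 lower (3.41%), and 181 had an unadjusted p under 0.01. In 520 genes (3.25%) every MINO library lay on the same side of every CTRL library, with MINO above in 221 (1.38%) and below in 299 (1.87%). "Higher" and "lower" are used below for values that did not pass the test. Among the 12163 genes with a mean of at least 50, the median half-width of the 95% confidence interval of the log2 fold change was 0.27, so that for a typical gene a difference smaller than this could not be told from 0 with 4 mice against 4, even before adjustment. The median log2 fold change of all genes was 0.0022. Without CTRL mouse 4 the count of called genes was 3, without MINO mouse 36 it was 1, and with the log2 value of mt-Rnr2 as a covariate it was 1930. As mt-Rnr2 was higher in every MINO library than in any CTRL library, the last of these compares the groups at a level that no libraries of both groups share.

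**Figure D1:**
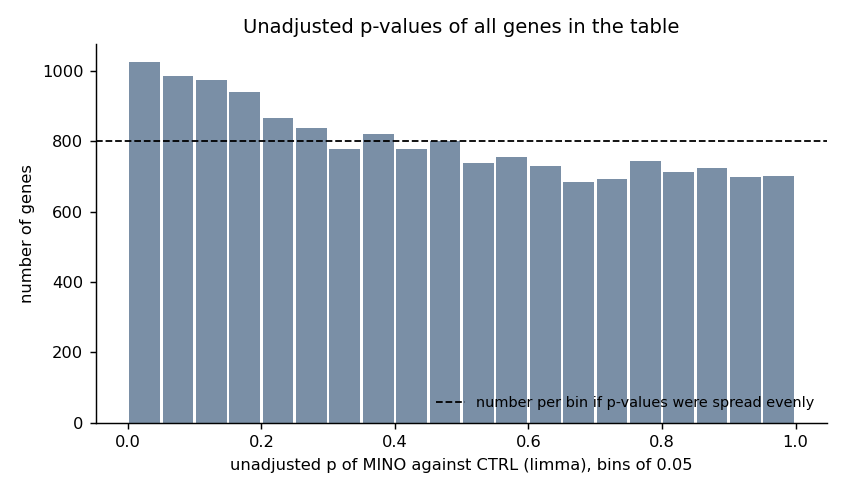
Number of genes (vertical axis) by unadjusted p of MINO against CTRL from limma (horizontal axis, bins of 0.05) for all 16005 genes. The dashed line at 800.25 is the number per bin if p-values were spread evenly. The first bin holds 1026 genes and the last 703, and no gene passed after adjustment.

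The gene with the smallest p was Vip, which encodes vasoactive intestinal peptide, a transmitter of neurons of the suprachiasmatic nucleus, the circadian pacemaker. Vip was at 22, 16, 20 and 8 scaled counts in CTRL mice 3, 4, 5 and 11 and at 57, 91, 203 and 46 in MINO mice 26, 31, 35 and 36. Every MINO mouse lay above every CTRL mouse, and MINO mouse 35 was far above the others. The log2 fold change was 2.36 (95% confidence interval 1.39 to 3.33, limma adjusted p = 0.768), and 1.66 without MINO mice 31 and 35. It was 1.37 without CTRL mouse 11 as well, and 0.97 with the tanycyte marker mean as a covariate in the fit of all libraries. A two-sided exact permutation test of 4 mice against 4 cannot give a p below 0.0286, and this is the value for Vip and for each gene without overlap named below. Vip (ENSMUSG00000019772) lies on chromosome 10 from 5639218 to 5647617 of GRCm38.

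Setd1b, which encodes a histone H3K4 methyltransferase, had the next smallest p. Its scaled counts were 133, 105, 107 and 133 in CTRL and 196, 175, 183 and 207 in MINO, a log2 fold change of 0.67 (95% confidence interval 0.39 to 0.96). Here the MINO mice were tight and none stood apart, and the value was 0.76 without MINO mice 31 and 35. The transcription factor gene Zbtb20 was at 3530, 3690, 3715 and 3462 in CTRL and 4189, 5083, 4578 and 4321 in MINO (log2 fold change 0.33, 95% confidence interval 0.18 to 0.48). The symbol Zbtb20 stands on 2 rows of the table, and the one with the higher mean (ENSMUSG00000022708) is given. The LIM homeobox gene Lhx9, a developmental transcription factor, was lower in MINO, at 41, 29, 42 and 61 in CTRL and 13, 16, 8 and 16 in MINO (log2 fold change -1.63, 95% confidence interval -2.38 to -0.89). For these genes as well the groups did not overlap.

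The other genes among the 10 with the smallest p were Fam189a2 (log2 fold change 0.73), 8430427H17Rik (0.44), Nme5 (0.94), the ribosomal protein pseudogene Rpl10a-ps1 (-0.54), Hist2h2aa1 (-0.71) and Hist2h2aa2 (4.63). Nme5, of the nucleoside diphosphate kinase family, was at 29, 50, 45 and 39 in CTRL and 82, 72, 75 and 81 in MINO, without overlap. The last 2 genes are neighbouring near-identical copies of a histone H2A gene. Hist2h2aa1 was at 218, 303, 292 and 264 in CTRL and 192, 183, 162 and 124 in MINO, and Hist2h2aa2 at 53, 0, 0 and 16 and at 88, 143, 212 and 126. The copies lay in opposite directions, and how the reads were divided between them is uncertain. None of these 10 genes passed the adjusted threshold (limma adjusted p = 0.768 for each).

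Both RNAs of the mitochondrial ribosome were higher in MINO, and the groups did not overlap in one of them. The large subunit RNA mt-Rnr2 was at 564006, 512896, 478610 and 589911 scaled counts in CTRL and 938402, 770278, 710968 and 866012 in MINO. Every MINO library lay above every CTRL library, also MINO mouse 35, the lowest of its group. Its log2 fold change was 0.61 (95% confidence interval 0.25 to 0.97, limma adjusted p = 0.768), or 1.53-fold. As a share of all scaled counts, mt-Rnr2 took 6.03% ± 0.51 in CTRL and 9.01% ± 0.88 in MINO (SD, n = 4, two-sided exact permutation test, p = 0.0286). Without MINO mice 31 and 35 the log2 fold change was 0.75.

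The small subunit RNA mt-Rnr1 was at 102351, 80367, 71154 and 113611 in CTRL and 173800, 122236, 106753 and 135324 in MINO. The groups overlapped through MINO mouse 35 and CTRL mouse 11. The log2 fold change was 0.55 (95% confidence interval 0.18 to 0.93), and the share was 1.03% ± 0.21 in CTRL and 1.47% ± 0.27 in MINO (SD, n = 4, two-sided exact permutation test, p = 0.0571). The 2 genes lie side by side on the mitochondrial genome (chromosome M of GRCm38), mt-Rnr1 (ENSMUSG00000064337) from 70 to 1024 and mt-Rnr2 (ENSMUSG00000064339) from 1094 to 2675, both on the plus strand. Whether messages were selected or ribosomal RNA was depleted before sequencing is not stated in any source used here. In a list of 60 replication-dependent histone and noncoding RNA genes, many of which lack the usual tail of messages, 47 were higher in MINO. Their median log2 fold change over the 60 was 0.24, and 12 were higher at an unadjusted p under 0.05 (3.01% of all genes). Of the 60, 4 had a CTRL mean under 9.5, and the other 56 had a median of 0.22, with 10 higher at that p. The part of library preparation in these values was not tested.

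Messenger RNAs of the mitochondrial genome were higher in MINO in 13 of 13 genes, but by less. Their median log2 fold change was 0.30, beside 0.0022 over all genes, and 7 of the 13 had an unadjusted p under 0.05 (3.01% of all genes did so in this direction). In 3 genes the groups did not overlap (1.38% of all genes with MINO above). These were mt-Co3, a subunit of cytochrome c oxidase, at 37636, 34713, 29657 and 37318 in CTRL and 45839, 42525, 43354 and 50751 in MINO (log2 fold change 0.39, 95% confidence interval 0.18 to 0.60), the complex I subunit mt-Nd3 (0.45, 0.20 to 0.70) and cytochrome b, mt-Cytb (0.41, 0.18 to 0.64). No MINO mouse stood apart in mt-Co3, while CTRL mouse 5 was low.

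The remaining messages ran from nearly level to those with a clearer difference. The complex I subunit mt-Nd1 was at 12606, 10085, 8097 and 12247 in CTRL and 11879, 10150, 9905 and 11879 in MINO (log2 fold change 0.04, 95% confidence interval -0.23 to 0.32), and all MINO values lay within the CTRL range. The oxidase subunits mt-Co1 (0.14, -0.13 to 0.41) and mt-Co2 (0.16, -0.09 to 0.40) were also close to level. The ATP synthase subunits mt-Atp8 and mt-Atp6 were at 0.41 and 0.30, the complex I subunits mt-Nd4l, mt-Nd4, mt-Nd5 and mt-Nd2 at 0.35, 0.34, 0.27 and 0.23, and mt-Nd6, encoded on the other strand, at 0.27. With quantile normalization mt-Co1 was at -0.05 and the other 12 messages stayed above 0, and with equal totals without the mitochondrial ribosomal RNAs all 13 did. CTRL mouse 5 had the lowest value in CTRL for each of these messages, and without it mt-Nd1 was at -0.09. Without MINO mice 31 and 35 the median was 0.45. Mitochondrial RNAs are cut from long shared precursors, so that these genes are not independent of each other. Of 22 transfer RNAs listed, 4 were measured, 2 higher and 2 lower, with mt-Te at 0.30.

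The ribosomal RNAs differed by more than the messages. The ratio of the 2 ribosomal RNAs to the 13 messages was 3.18 ± 0.20 in CTRL and 4.08 ± 0.28 in MINO (SD, n = 4, two-sided exact permutation test, p = 0.0286), with 3.00, 3.11, 3.46 and 3.16 in CTRL and 4.48, 4.05, 3.86 and 3.95 in MINO. These ranges did not overlap. The share of all scaled counts in the 13 messages was 2.23% ± 0.32 in CTRL and 2.56% ± 0.18 in MINO (SD, n = 4, two-sided exact permutation test, p = 0.143).

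**Figure D2:**
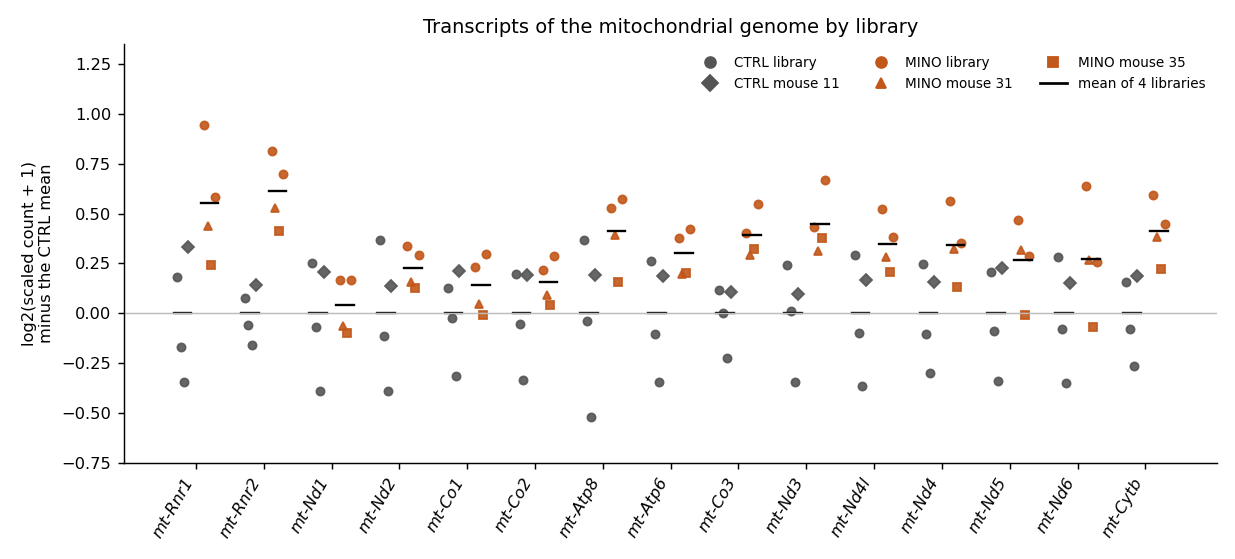
Level of each mitochondrial ribosomal RNA (mt-Rnr1, mt-Rnr2) and message in every library, as log2(scaled count + 1) minus the CTRL mean (vertical axis), in genome order. Each point is a library, black bars are means of 4 libraries, and diamonds, triangles and squares mark CTRL mouse 11, MINO mouse 31 and MINO mouse 35. The mean of MINO lies above that of CTRL for all 15 RNAs, from 0.04 for mt-Nd1 to 0.61 for mt-Rnr2.

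Nuclear genes of the same organelle were closer to level. Of 74 measured respiratory chain subunits of the nuclear genome, 23 were higher in MINO and 51 lower, with a median log2 fold change of -0.04, and 0.00 without MINO mice 31 and 35. Values of these genes ran from -0.30 to 2.05. None passed the test, 1 higher and 5 lower had an unadjusted p under 0.05, and in 4 every MINO library lay below every CTRL library (1.87% of all genes). Uqcrc1, a core subunit of complex III, was at 1171, 1167, 1104 and 1127 in CTRL and 919, 1005, 1092 and 1030 in MINO (log2 fold change -0.18, 95% confidence interval -0.33 to -0.03). The complex I subunits Ndufs6, Ndufs5 and Ndufs3 were at -0.30, -0.22 and -0.15 without overlap, and the oxidase subunit Cox5a was at -0.18 with overlap.

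Genes for the proteins of the mitochondrial ribosome had a median near 0. Of 76 measured genes 43 were higher and 33 lower, with that median at 0.03. Their log2 fold changes ran from -0.87 to 1.07. In 1 of them the groups did not overlap, with MINO above (1.38% of all genes). The smallest p of the list was that of Mrps33, a small subunit protein, at 105, 123, 118 and 133 in CTRL and 37, 58, 74 and 111 in MINO (log2 fold change -0.87, 95% confidence interval -1.46 to -0.28), where MINO mouse 36 lay within the CTRL range. Among 23 measured factors of mitochondrial translation and RNA handling the median was -0.01, and Tfam, which packages mitochondrial DNA and starts its transcription, was at 311, 267, 353 and 307 in CTRL and 289, 333, 265 and 311 in MINO (log2 fold change -0.05, 95% confidence interval -0.28 to 0.19).

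Lars2, the mitochondrial leucyl-tRNA synthetase, was the 1 member of that list of 23 with an unadjusted p under 0.05 (6.41% of all genes). Its scaled counts were 37495, 50754, 114571 and 33975 in CTRL and 42392, 19191, 30219 and 24645 in MINO (log2 fold change -0.90, 95% confidence interval -1.62 to -0.18). CTRL mouse 5 held the highest value by a wide margin. The predicted gene Gm26924, named here after its values were seen, was also highest in CTRL mouse 5, at 90770, 131633, 291127 and 83807, and was at 92364, 56039, 84438 and 67673 in MINO (-0.83). Whether reads of these 2 genes come from a shared sequence was not tested.

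Stress responses that follow failure of mitochondrial translation in cultured cells had medians near 0. Of 25 measured genes of the integrated stress response 11 were higher and 14 lower, with a median of -0.04. Atf3 and Nupr1 had a CTRL mean under 9.5, and of the other 23 genes 9 were higher and 14 lower. Atf4, the main transcription factor of this response, was at 436, 403, 438 and 489 in CTRL and 405, 417, 365 and 440 in MINO (log2 fold change -0.12, 95% confidence interval -0.32 to 0.08). The groups overlapped. Aldh1l2, a mitochondrial enzyme of folate metabolism and an ATF4 target, was the only member of the 25 with an unadjusted p under 0.05 (6.41% of all genes). It was at 129, 142, 175 and 115 in CTRL and 162, 186, 186 and 192 in MINO (0.38, 0.07 to 0.69). Of 13 mitochondrial chaperones and proteases 7 were higher and 6 lower, with a median of 0.03, and Hspd1, the mitochondrial chaperonin, was at -0.09. Medians were -0.03 for 20 genes of endoplasmic reticulum stress, -0.01 for 24 targets of the oxidative stress factor NRF2 and -0.04 for 21 genes of cell death and PARP.

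Microglial genes were split evenly between the directions over all libraries, but not without the mice that stood apart. Of 28 measured markers of resting microglia 14 were higher and 14 lower, with a median log2 fold change of 0.01, and the groups overlapped in the mean of the list. Without MINO mice 31 and 35, 7 were higher and 21 lower, with a median of -0.15, and without CTRL mouse 11 as well 3 were higher and 25 lower, with a median of -0.14. Csf1r, the receptor that microglia need to survive, was at 491, 460, 434 and 449 in CTRL and 448, 506, 597 and 451 in MINO (log2 fold change 0.12, 95% confidence interval -0.10 to 0.33). P2ry12, the purinergic receptor of resting microglia, was at 184, 164, 221 and 190 in CTRL and 146, 183, 170 and 185 in MINO (-0.15, -0.43 to 0.13), and the fractalkine receptor Cx3cr1 was at -0.15 (-0.43 to 0.14). In bulk tissue, fewer cells of a type and less RNA per cell cannot be told apart.

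Of the 28 members of that list 1, Fcgr3, separated the groups, close to the share over all genes (3.25%, and 1.87% with MINO below). This Fc receptor gene was at 56, 62, 53 and 55 in CTRL and 36, 48, 36 and 26 in MINO (log2 fold change -0.65, 95% confidence interval -1.15 to -0.14). Of 14 measured genes of microglial activation, of 23 listed, 12 were higher in MINO, with a median of 0.14. H2-Eb1 had a CTRL mean under 9.5, and of the other 13 genes 11 were higher, with a median of 0.13. Without MINO mice 31 and 35, 9 of the 14 were higher and 5 lower, with a median of 0.14. The endotoxin receptor gene Tlr4 was at 5, 18, 10 and 12 in CTRL and 21, 27, 19 and 25 in MINO, without overlap but at few reads (1.07, 0.17 to 1.98).

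Inflammatory genes were mostly higher in MINO, by small amounts. Of 26 measured genes of the interferon response and MHC class I, 23 were higher and 3 lower, with a median of 0.16, and none had an unadjusted p under 0.05. Bst2 had a CTRL mean under 9.5, and of the other 25 genes 22 were higher, with a median of 0.15. Without MINO mice 31 and 35, 20 of the 26 were higher and 6 lower, with a median of 0.14. With the tanycyte marker mean as a covariate 15 were higher and 11 lower, with a median of 0.04. In OLZ+MINO against OLZ, 2 of 25 measured genes of this list were higher, with a median of -0.36. B2m, the light chain of MHC class I, was at 263, 306, 215 and 282 in CTRL and 301, 314, 354 and 297 in MINO (log2 fold change 0.26, 95% confidence interval -0.00 to 0.51), and the interferon-induced gene Ifit1 was at 0.58 (-0.03 to 1.19). The groups overlapped in both. Of 15 measured cytokines and mediators, of 28 listed, 10 were higher, with a median of 0.09, and of 21 genes of the NF-kB pathway 14 were higher, with a median of 0.05 and Nfkb1 itself at 0.19 (-0.03 to 0.41). Of 14 matrix metalloproteinases and their inhibitors 6 were higher and 8 lower, with a median of -0.02.

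Among the feeding peptides, MCH was the clearest. Pmch, its precursor gene in neurons of the lateral area that promote feeding, was at 3927, 4267, 5724 and 4035 in CTRL and 3499, 2802, 1428 and 2023 in MINO. Every MINO mouse lay below every CTRL mouse, MINO mouse 35 the lowest. The log2 fold change was -0.94 (95% confidence interval -1.42 to -0.46), and -0.74 without MINO mice 31 and 35. Its receptor gene Mchr1 was also lower without overlap, at 79, 75, 74 and 59 in CTRL and 49, 46, 52 and 47 in MINO (-0.55, -0.95 to -0.15).

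Hcrt and Npvf, peptide genes of the lateral and dorsomedial hypothalamus, lay the same way with overlap. With Pmch they were the 3 lower of 7 measured peptides listed as promoting feeding. The other 4, Gal and Qrfp among them, were higher, Agrp and Qrfp with a CTRL mean under 9.5. Hcrt, the orexin precursor, was at 232, 453, 330 and 885 in CTRL and 331, 250, 86 and 224 in MINO (log2 fold change -1.06, 95% confidence interval -1.97 to -0.16), where CTRL mouse 11 was high and MINO mouse 35 low. It was -0.26 without these mice and MINO mouse 31. Npvf, which encodes RFamide peptides of the dorsomedial nucleus, was at -0.86 (-1.60 to -0.12). The neurokinin receptor gene Tacr3 was at 159, 151, 182 and 182 in CTRL and 140, 100, 120 and 124 in MINO, without overlap (-0.48, -0.78 to -0.18). Of the 11 genes of the dorsomedial nucleus and lateral area, Pmch, Lhx9 and Tacr3 among them, 8 were lower and 3 higher. Of the 8 lower genes, 6 had an unadjusted p under 0.05 (3.41% of all genes were lower at that p). One of the 6 is Parpbp (-0.84), whose gene overlaps Pmch in the annotation of GRCm38, and as the strand setting of the counting is not stated, the same reads may stand in both. The list had a median of -0.48, and of -0.38 without MINO mice 31 and 35.

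The arcuate peptides were high in the MINO mice that stood apart. Npy, the most potent feeding peptide of the arcuate nucleus, was at 30, 67, 15 and 26 in CTRL and 38, 99, 130 and 77 in MINO (log2 fold change 1.36, 95% confidence interval 0.41 to 2.32), and it overlapped through CTRL mouse 4 and MINO mouse 26. Agrp, which blocks melanocortin receptors, was at 4, 8, 10 and 5 in CTRL and 2, 20, 32 and 6 in MINO (0.57, -1.02 to 2.17). MINO mice 31 and 35 held the high values in both genes. Without them Npy was at 0.84 and Agrp at -0.69, so that the direction of Agrp turned. Agrp rests on a few reads per library, and its span in the annotation of GRCm38 overlaps 7 other genes.

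Pomc, the precursor of the melanocortins that restrain feeding, was at 48, 608, 69 and 25 in CTRL and 316, 976, 1106 and 163 in MINO. Its log2 fold change was 2.50 (95% confidence interval 0.70 to 4.31) and the groups overlapped through CTRL mouse 4. Without MINO mice 31 and 35 it was 1.41, and it was -0.43 once the tanycyte marker mean entered the fit as a covariate. Cartpt, made in the same neurons and elsewhere, was at 0.24 (-0.22 to 0.71), and Ghrh, of arcuate neurons that drive growth hormone, at 1.11 (-0.11 to 2.33). Without those mice Ghrh was at 0.17 and Cartpt at 0.11. Of 17 arcuate markers 16 were higher, with a median of 0.49, and 12 with a median of 0.09 without MINO mice 31 and 35. Agrp, Corin and Kiss1 had a CTRL mean under 9.5, and the other 14 arcuate markers had a median of 0.33. Of 19 feeding receptors and signalling genes 16 were higher, with a median of 0.19, but 9 were higher and 10 lower without MINO mice 31 and 35, with a median of -0.0001. The NPY receptor Npy1r and the leptin receptor Lepr were at 0.56 and 0.28, and at 0.27 and 0.07 without those mice. The summed arcuate markers were at 3519, 4838, 4805 and 2589 in MINO and 2157 to 3663 in CTRL, highest in the 2 MINO mice with the highest summed tanycyte markers, and the part of tissue makeup in the peptide values was not tested.

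**Figure D3:**
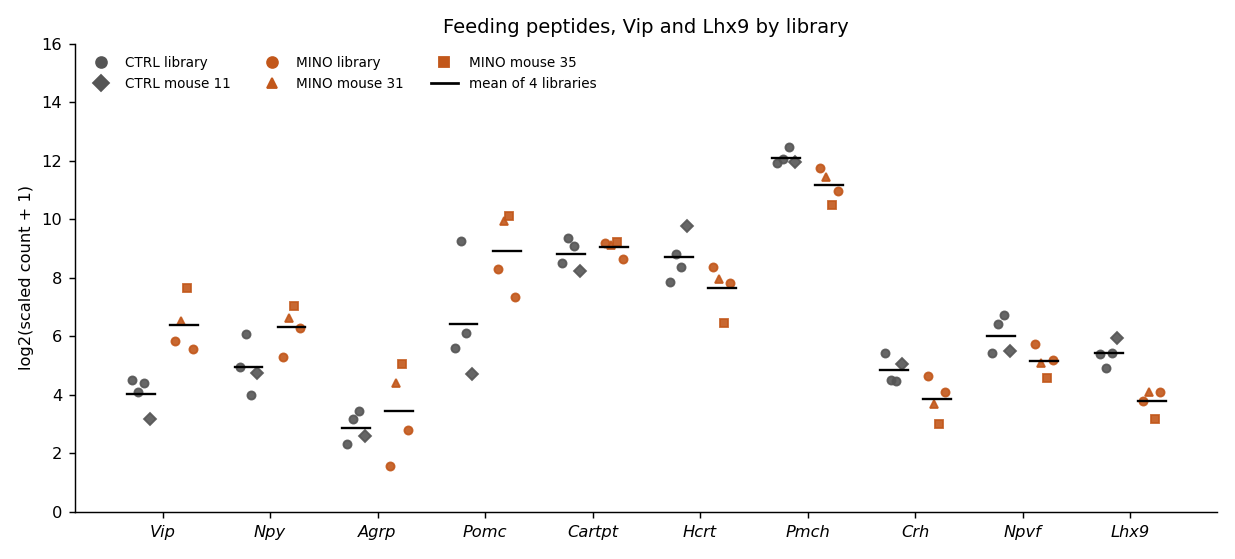
Vip, feeding peptides and Lhx9 as log2(scaled count + 1) in every library (vertical axis). Each point is a library, black bars are means of 4 libraries, and symbols mark CTRL mouse 11 and MINO mice 31 and 35. Vip, Pmch and Lhx9 separate the groups, while in Npy, Agrp and Pomc the triangle and square of MINO mice 31 and 35 lie at or near the top.

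Nr5a2 and Nfyb, whose counterparts in the worm C. elegans the study tested for a part in feeding, were not called. Nr5a2, an orphan nuclear receptor gene, was at 20, 30, 30 and 12 in CTRL and 35, 86, 65 and 22 in MINO (log2 fold change 1.04, 95% confidence interval 0.11 to 1.98), again highest in MINO mice 31 and 35, and at 0.35 without them. Nfyb, which encodes part of the factor NF-Y, was at 176, 197, 182 and 179 in CTRL and 236, 177, 186 and 205 in MINO (0.12, -0.13 to 0.38).

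Markers of hypothalamic regions and of the ventricle wall were uneven between the groups. Of 12 markers of the suprachiasmatic nucleus, Vip among them, 11 were higher in MINO, with a median of 0.88, and 4 were higher at an unadjusted p under 0.05 (3.01% of all genes). Prok2 and Nms had a CTRL mean under 9.5, and the other 10 had a median of 0.59, with 3 higher at that p. The mean of the list was 5.32 to 6.09 in CTRL and 5.91, 6.42, 6.79 and 7.35 in MINO mice 36, 26, 31 and 35, so that the groups overlapped. Prok2, a clock-driven output peptide of this nucleus, was at 1, 5, 8 and 4 in CTRL and 6, 25, 31 and 8 in MINO (1.65, 0.16 to 3.14), and the peptide gene Nms at 1.82 (-0.09 to 3.72). The developmental factors Six3 and Six6, which persist there, were at 1.0 and 1.38, and vasopressin (Avp), which other nuclei make as well, at 0.98 (-0.93 to 2.90). Prok2 was at 0.72, Nms at 1.10, Six3 at 0.48 and Six6 at 0.38 without MINO mice 31 and 35, and Avp turned to -0.05. Without CTRL mouse 11 as well the median of the list was 0.17, and Six6 was at -0.26.

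All 20 measured tanycyte markers were higher, with a median of 0.69 and 10 at an unadjusted p under 0.05 (3.01% of all genes were higher at that p). Crym and Fndc3c1 had a CTRL mean under 9.5, and the other 18 had a median of 0.59, with 8 at an unadjusted p under 0.05. The median of the 20 was 0.30 without MINO mice 31 and 35, with 17 higher. Scn7a, a sodium channel gene, was at 299, 302, 210 and 225 in CTRL and 280, 703, 728 and 275 in MINO (0.80, 0.15 to 1.45), and at 0.12 without those mice. Col23a1, Rax and Crym were at 1.51, 1.19 and 1.84, and Fndc3c1 was at 11, 5, 0 and 0 in CTRL and 15, 105, 129 and 10 in MINO. In each of them mice 31 and 35 held the high values, and without these mice Col23a1, Rax and Crym were at 0.65, 0.45 and 1.02. The deiodinase gene Dio2, which makes the active thyroid hormone, was at 86, 82, 74 and 110 in CTRL and 108, 128, 120 and 141 in MINO (0.50, 0.15 to 0.86), with no high value in mice 31 and 35 alone.

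Markers of the pituitary and of the pars tuberalis, its strip on the underside of the hypothalamus, were uneven as well. Of 13 listed 7 were measured, and Cga, Prl and Tshr had a CTRL mean under 9.5, so that no count is given over the list. The summed scaled counts of the 7 were 1445 to 1565 in CTRL and 1460 to 2083 in MINO. Chga, Eya3, Pou1f1 and Timeless made up most of these sums, and Cga, Prl and Tshr only a small part. Cga, the common subunit of the glycoprotein hormones, was at 2, 0, 0 and 0 in CTRL and 4, 93, 50 and 4 in MINO. The thyrotropin receptor gene Tshr was at 3, 9, 14 and 11 in CTRL and 20, 48, 57 and 15 in MINO (1.76, 0.59 to 2.94), and prolactin, Prl, was at 0, 0, 0 and 3 in CTRL and 2, 3, 20 and 53 in MINO. The high values of Cga and Tshr were in mice 31 and 35 and those of Prl in mice 35 and 36. Without mice 31 and 35 Tshr was at 0.99. All 14 measured ependymal markers were higher, with a median of 0.55, and 11 with a median of 0.33 without CTRL mouse 11 and MINO mice 31 and 35, among them the cilia gene Spag6 at 87, 79, 87 and 78 in CTRL and 127, 123, 136 and 100 in MINO (0.54, 0.22 to 0.87). The groups did not overlap in Spag6, and it was at 0.42 without those 3 mice. Dynlrb2 had a CTRL mean under 9.5, and the other 13 ependymal markers were all higher, with a median of 0.55.

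Markers of the thalamus and of the mammillary nuclei (posterior hypothalamus) lay the other way. Of 12 mammillary markers 11 were lower, with a median of -0.55, but of 0.16 without MINO mice 31 and 35. Sim2 had a MINO mean under 9.5, and of the other 11 mammillary markers 10 were lower, with a median of -0.40. Of 14 thalamic markers 12 were lower, with a median of -0.32 and of -0.07 without CTRL mouse 11 and those 2 mice. The kinase gene Prkcd was at 62, 79, 78 and 432 in CTRL and 61, 54, 54 and 32 in MINO (-1.20, -2.27 to -0.13), and the transcription factor gene Tcf7l2 at 148, 132, 134 and 446 and at 108, 131, 129 and 90 (-0.70, -1.41 to 0.01). CTRL mouse 11 alone was high in both, and neither gene overlapped between the groups. Without it and MINO mice 31 and 35 they were at -0.70 and -0.48. The WNT effector gene Lef1 was at 64, 64, 119 and 133 in CTRL and 63, 35, 30 and 52 in MINO (-1.04), also without overlap, or -0.45 without those 3 mice. Calretinin, Calb2, was at -0.30. In all, 3 of the 14 thalamic markers were without overlap (1.87% of all genes with MINO below). The borders of the dissection are not stated in any source used here, and their part in these values was not tested.

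**Figure D4:**
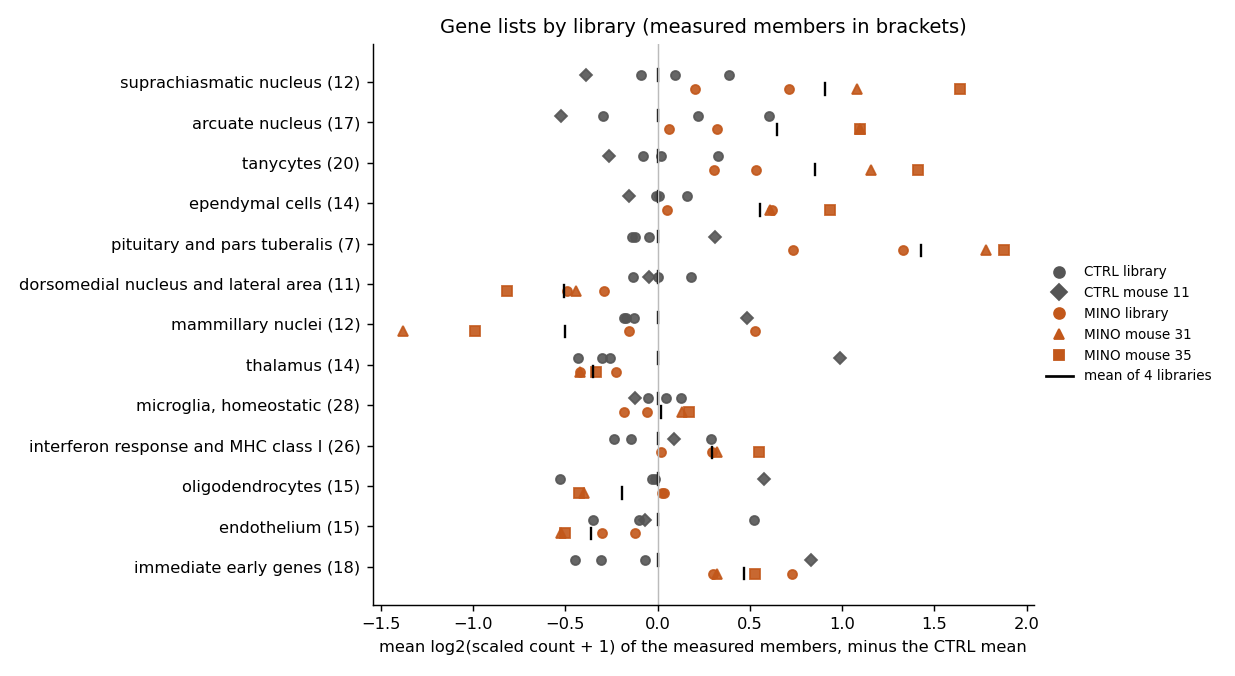
Mean log2(scaled count + 1) over the measured members of each gene list in every library, minus the CTRL mean (horizontal axis). Each point is a library, black bars are means of 4 libraries, and symbols mark CTRL mouse 11 and MINO mice 31 and 35. MINO mice 31 and 35 lie at the high end for the arcuate nucleus and tanycytes and at the low end for the mammillary nuclei, and CTRL mouse 11 at the high end for the thalamus.

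Among the cell types, endothelial markers were lower in 15 of 15 genes, with a median of -0.38, 6 of them at an unadjusted p under 0.05 (3.41% of all genes were lower at that p) and none without overlap (1.87% of all genes with MINO below). Their summed scaled counts were 1757 to 3059 in CTRL and 1517 to 1935 in MINO. CTRL mouse 4 was the highest. Flt1, a VEGF receptor gene, was at 281, 559, 319 and 300 in CTRL and 341, 196, 200 and 271 in MINO (log2 fold change -0.51, 95% confidence interval -0.99 to -0.03), and Tie1 and Esam were at -0.74 and -0.71. Flt1 was at -0.20 and the median at -0.18 without MINO mice 31 and 35. Of 15 oligodendrocyte markers 14 were lower, with a median of -0.24, but of 0.25 without CTRL mouse 11 and MINO mice 31 and 35, and Mbp, a myelin protein gene, was at 9690, 10826, 7008 and 14630 in CTRL and 10588, 7888, 8222 and 11616 in MINO (-0.11). Astrocyte markers had a median of 0.04 over 17 genes, with 13 higher and 4 lower. Of the 13, 3 had an unadjusted p under 0.05 (3.01% of all genes) and 2 were without overlap (1.38%). Neuron markers had a median of -0.14 over 14, or -0.02 without CTRL mouse 11 and MINO mice 31 and 35. Of 7 measured erythroid markers 6 were higher, with a median of 0.60, or 0.27 without those 3 mice, and Hba-a1 at 362, 663, 345 and 413 in CTRL and 515, 708, 793 and 1033 in MINO (0.78, 0.31 to 1.25). Summed erythroid values were 3528 to 6788 in CTRL and 3792 to 9320 in MINO.

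Genes that neurons switch on with activity were mostly higher in MINO. Of 18 measured immediate early genes 16 were higher, with a median of 0.41, which was 0.56 without MINO mice 31 and 35 and 0.69 without CTRL mouse 11 as well. Nr4a3, a nuclear receptor gene, was at 64, 104, 54 and 84 in CTRL and 111, 134, 128 and 119 in MINO, without overlap (0.72, 0.28 to 1.15). Fos was at 71, 85, 47 and 302 in CTRL and 127, 126, 152 and 189 in MINO (0.60, -0.33 to 1.53), and CTRL mouse 11 alone was above the MINO mice. The same mouse was the highest of CTRL for Npas4, Nr4a1, Fosb and Egr1, whose log2 fold changes were 1.11, 0.86, 1.14 and 0.63. Without it Fos was at 1.14, Npas4 at 1.68, Nr4a1 at 1.26, Fosb at 1.58 and Egr1 at 0.92. How the mice were handled before the brain was removed was not analysed here.

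Clock genes differed little. Of 15 measured genes 12 were higher, with a median of 0.09. Per1, a repressor of the clock that light and other signals induce, was at 296, 296, 252 and 282 in CTRL and 325, 354, 404 and 313 in MINO, without overlap (log2 fold change 0.31, 95% confidence interval 0.08 to 0.53). The nuclear receptor gene Nr1d1, also of the clock, was at 278, 306, 273 and 228 in CTRL and 290, 381, 396 and 354 in MINO, which overlap (0.39, 0.12 to 0.65). Cytosolic ribosomal proteins were higher in 61 of 78 genes by a median of only 0.08, and sterol and fatty acid synthesis had a median of -0.05 over 23 genes.

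The same drug was also given with olanzapine, and OLZ+MINO against OLZ shares no library with MINO against CTRL. These 8 libraries are in a table that was scaled separately, and the fit there included CTRL libraries for the estimate of the spread, so that values are set side by side and the difference between the comparisons was not tested. With olanzapine in both groups, 1974 of 15983 genes were called (12.4%), 958 of them rose (5.99%) and 1016 fell (6.36%). This count depended on single libraries and on the fit. It dropped to 187 when mouse 13 of OLZ was left out and to 853 for mouse 14 of that group. Leaving out mouse 48 or 40 of OLZ+MINO gave 556 and 663, and leaving out mouse 37 or 47 gave 2834 and 2635. With no intensity trend in the fit it was 1023. All 15 mitochondrial RNAs were higher with minocycline there too, and 11 of the 13 messages and both ribosomal RNAs rose. mt-Rnr2 was at 521652, 585218, 566663 and 590782 in OLZ and 841757, 852491, 806520 and 811973 in OLZ+MINO (log2 fold change 0.55, limma adjusted p = 0.122), and mt-Rnr1 at 0.76 (limma adjusted p = 0.043). The groups did not overlap in either. The median over the messages was 0.41, beside 0.30 in MINO against CTRL. mt-Nd1 had the smallest difference of the messages in both comparisons, at 0.20 and 0.04.

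Fewer than 50% of all genes had the same sign in the comparisons. This held for 6575 (41.6%) of the 15792 shared genes, and for 315 (31.1%) of the 1013 shared genes with an unadjusted p under 0.05 in MINO against CTRL. Npy was at 205, 108, 94 and 114 in OLZ and 22, 47, 24 and 21 in OLZ+MINO, a log2 fold change of -2.16 beside 1.36 in MINO against CTRL. Npy, Agrp, Pomc, Nr5a2 and Nfyb fell there (limma adjusted p = 0.043, 0.046, 0.113, 0.047 and 0.055). Their log2 fold changes with olanzapine were -2.38 for Agrp, -3.23 for Pomc, -2.04 for Nr5a2 and -0.51 for Nfyb, beside 0.57, 2.50, 1.04 and 0.12 without it. The paper picked Npy, Agrp, Nr5a2 and Nfyb, among others, as changed by olanzapine and restored by minocycline. It did so in these same OLZ, OLZ+MINO and CTRL libraries, so that the fall of these genes was set by that choice. Setd1b lay the same way in both comparisons, at 157, 158, 133 and 187 in OLZ and 187, 197, 209 and 256 in OLZ+MINO (0.42, limma adjusted p = 0.202), with 1 pair of values in common, whereas Vip was at 0.02 and Zbtb20 at -0.44. Scn7a, of tanycytes, was at -1.98 beside 0.80, and the median of the tanycyte list was -0.95 beside 0.69.

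**Figure D5:**
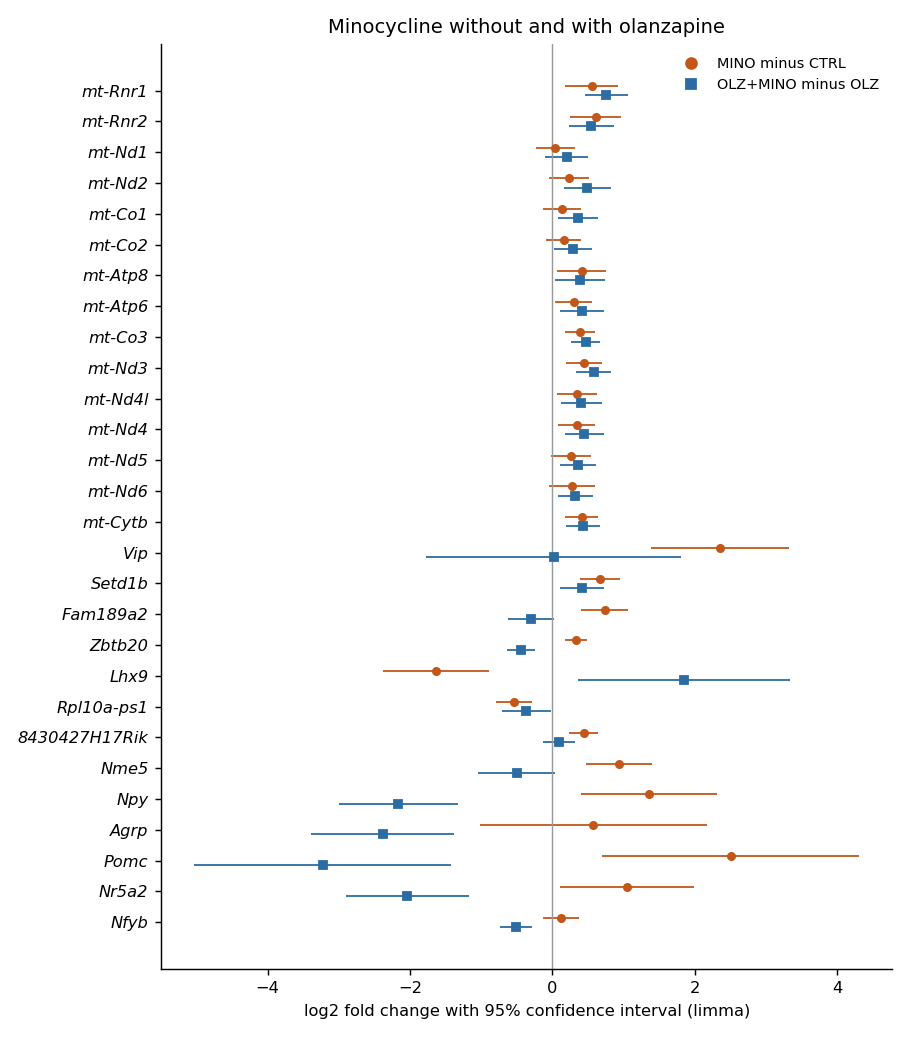
Log2 fold changes with 95% confidence intervals from limma (horizontal axis) for MINO minus CTRL (circles) and OLZ+MINO minus OLZ (squares), 4 libraries per group. The 15 mitochondrial RNAs lie above 0 in both comparisons, while Npy, Agrp, Pomc and Nr5a2 lie above 0 without olanzapine and below 0 with it, a difference that was not tested. Agrp had a CTRL mean under 9.5, so that it had to be higher in the MINO mean. The paper picked Npy, Agrp, Nr5a2 and Nfyb in the OLZ, OLZ+MINO and CTRL libraries, as changed by olanzapine and restored by minocycline. Their direction in OLZ+MINO minus OLZ was set by that choice.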

How the data were processed

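RNA was sequenced from TruSeq libraries of hypothalamus, 1 per mouse. Bowtie2 (alignment to mouse transcripts), RSEM (gene counts) and limma are the tools the authors name, and the submitters' processing notes give mm9. Tool versions, the normalization and any filter were stated in no source used here. The deposited signal is scaled, not raw, and was rounded by the authors, since a CTRL library in one table is 1.0048 to 1.00615 times itself in the other. The design also allowed for raw counts, but a test for counts was therefore not used. The authors' columns of fold changes and p-values, and a second sheet that repeats rows of the first, were not used.

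For MINO against CTRL, limma 3.58.1 (R 4.3.3, eBayes with an intensity trend) was run on log2(value + 1), 4 MINO against 4 CTRL libraries, adjusted by Benjamini-Hochberg. A fold change on this scale understates the change of low genes. A filter at a group mean of 1 removed no gene (lowest mean 9.5). Each library is 1 mouse, and no batch is labelled. The scripts were tested on simulated data. Depth was estimated from value steps, and precision is limited by 4 libraries a group.

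The comparison, the named genes and the 52 lists were chosen with earlier results of these data known. Named genes are the 10 with the smallest p, list members, and Npy, Agrp, Pomc, Nr5a2 and Nfyb. A further part of the rule, the 12 largest rises and falls among called genes without overlap, gave none. Of the symbols, 23 had become dates and are not named. Coordinates are from GENCODE M21 of GRCm38, matched by Ensembl identifier, and entered no test. Alternatives were other pseudocounts, filters, scalings, fits, covariates and left-out libraries.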

Additional observations from a re-analysis of the deposited data

Results flagged for a closer look

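For 2 of the 93 named genes, all minocycline libraries lay on one side of their comparison group without olanzapine. With olanzapine all lay on the opposite side. The difference was not tested, because the tables were scaled separately. Over all genes 3.25% were without overlap in MINO against CTRL, and the share on opposite sides in the 2 comparisons was not counted. Tshr had log2 fold changes of 1.76 (MINO minus CTRL) and -3.02 (OLZ+MINO minus OLZ), which lie 4.78 apart. As its CTRL mean was under 9.5, the lowest mean of any gene, Tshr had to be higher in the MINO mean. For Zbtb20 they were 0.33 and -0.44, which lie 0.77 apart. Tshr is a marker of the pars tuberalis, whose list was highest in MINO mice 31 and 35.

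In 11 of 196 groups of 4 tested, 1 library lay far from the other 3, with a gap to the nearest of them past Dixon's 95% critical share of the group's range. Chance flags about 1 in 20 groups. CTRL mouse 11 was the high library for Prkcd (gap of 0.954 of the range), Tcf7l2 (0.949), Fos (0.851), Npas4 (0.845) and Prl (1.0, at 3 scaled counts beside 0). CTRL mouse 4 was high for Pomc (0.925), Ghrh (0.897) and Flt1 (0.863) and low for Calb2 (0.916). CTRL mouse 3 was high for Cga (1.0, at 2 scaled counts beside 0), and MINO mouse 36 was low for Cartpt (0.851).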

How the results depend on the processing

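The count of called genes was 0 under other pseudocounts, filters, scalings, weights and fits, at a threshold of 0.05 and without MINO mice 31 and 35, but it was 1930 with log2 mt-Rnr2 as a covariate, a level that no libraries of both groups share. With 1 library left out it was 0 to 3, with 3 (4930447C04Rik, Gm9923 and Nanp) without CTRL mouse 4 and 1 (Gm20458) without MINO mouse 36. Genes at an unadjusted p under 0.05 numbered 1026 with all libraries, 432 without MINO mice 31 and 35 and 685 with the tanycyte covariate, with fewer libraries or degrees of freedom in these fits. Of 93 named genes 57 kept their direction under the alternatives run and 36 did not, and the cause was not tested. Quantile normalization put mt-Co1 at -0.051. Without MINO mice 31 and 35, Agrp was at -0.69, Csf1r at -0.027, Avp at -0.046 and Mbp at 0.12. Without CTRL mouse 11 as well, a choice made after seeing the data, Agrp was at -0.79, Csf1r at -0.037, Avp at -0.90, Six6 at -0.26, Cartpt at -0.082 and Mbp at 0.30. With the tanycyte covariate Agrp was at -1.36, Pomc at -0.43, Nr5a2 at -0.29, Npy1r at -0.11, Lepr at -0.056, Six3 at -0.13, Csf1r at -0.14, Atf4 at 0.070, Tfam at 0.081, Avp at -1.82, Six6 at -0.84, Ghrh at -0.85, Cartpt at -0.28 and Mbp at 0.30. With the mt-Rnr2 covariate mt-Rnr1 was at -0.59, mt-Nd1 at -0.72, mt-Nd2 at -0.47, mt-Co1 at -0.52, mt-Co2 at -0.45, mt-Atp8 at -0.53, mt-Atp6 at -0.37, mt-Co3 at -0.0072, mt-Nd3 at -0.078, mt-Nd4l at -0.40, mt-Nd4 at -0.41, mt-Nd5 at -0.55, mt-Nd6 at -0.73, mt-Cytb at -0.27, Nfyb at -0.17, Nr4a1 at -0.26, Ndufs6 at 0.024, P2ry12 at 0.13, Ifit1 at -0.018, Gm26924 at 0.27, Fos at -0.91 and Egr1 at -0.80, and 30 other named genes passed the threshold. With 1 library left out mt-Nd1 ran from -0.087 to 0.13, Tfam from -0.11 to 0.020 and Mbp from -0.29 to 0.066. Quantile values are not given for mt-Rnr2, which ranks first in each library, and a covariate was not run on its own genes. No paired analysis was possible because the mice of the 2 groups share no replicate number. For OLZ+MINO against OLZ the count of 1974 ran from 187 to 2834 with 1 library left out and was 1023 with no intensity trend. Genes at a few reads, such as Agrp, are limited by depth.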
